A study of Mus musculus with 6 samples.

Results

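The genes described here are 39 factors that shorten the poly(A) tail of mRNAs, remove their cap and degrade them, measured in yolk sac of Tnrc6a gene-trap mice and of their wild-type littermates. They were chosen by name, and each gene was read from the brightest of its probe sets that carry a single gene symbol. On the array 38 of the 39 genes had such a probe set (46 probe sets in all, of 35557 in the table), and all 38 passed the filter on dim signals, among 16387 probe sets tested. The exception was Pabpc4, whose 4 probe sets are annotated to Pabpc4 and Gm12620 together. The groups were 3 yolk sacs labelled Tnrc6a (GW182) mutant, from embryos homozygous for a gene-trap allele written GW182gt/gt, and 3 yolk sacs of wild-type littermates, all at embryonic day 9.5. Total RNA of each was profiled on a Mouse Gene 1.0 ST array, a 1-colour Affymetrix array, and values are the authors' log2 signals. One embryo gave each RNA, per the labels. Beside the genotypes stands the label word mixed, left without explanation there, and neither a strain nor the position of the trap is named.

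Most cytoplasmic mRNAs decay from their tail. The PAN2-PAN3 nuclease and then the CCR4-NOT complex shorten the poly(A) tail, poly(A)-binding proteins leave, the Lsm1-7 ring with PATL1 binds the shortened end, DCP2 removes the cap with the help of its co-factors, and XRN1 digests the body of the mRNA. GW182, the protein of Tnrc6a, binds Argonaute on microRNA targets and recruits PAN3, the CCR4-NOT scaffold and the poly(A)-binding protein. The genes below thus include machinery that GW182 acts through, beside factors of other routes, such as Upf1 and Xrn2. The comparison asks whether the mRNAs of these factors differ in yolk sac when Tnrc6a is disrupted.

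Tnrc6a checked the labels. It read 7.81, 5.33 and 5.20 in the libraries labelled mutant 1, 2 and 3, against 8.40, 7.62 and 8.29 in wild types 1, 2 and 3 (log2 difference −1.99, limma adjusted p = 0.999, two-sided exact permutation p = 0.2, with 0.1 the smallest that this design allows). The library labelled mutant 1 lay above wild type 2 and goes against its label, and directions given for mutants include it unless stated. Array medians lay between 5.19 and 5.22. All 13 visceral endoderm markers and all 10 primitive erythroid markers on the array passed the filter. Primitive erythroid markers were lower in the mutants for 10 of 10 genes, where 7797 of all 16387 tested probe sets were lower. Mutant 2 was the lowest array for each of the 10, and the groups of several overlapped, among them Gata1 and Klf1. Their summed log2 signal was 14.55, 14.17 and 14.59 in the libraries labelled mutant 1, 2 and 3. It was 14.66 to 14.69 in wild type, without overlap. The part of this signal in the values below was not tested. Xist, which marks female tissue, was high on 3 arrays, those of mutant 3, the library labelled mutant 1 and wild type 1. The number of arrays limits the precision, and the p-values measure the spread between these 6 samples.

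No decay factor passed the test between genotypes, and the differences were small. Over the 38 genes the log2 difference, mutant minus wild type, ran from −0.19 (Lsm2) to 0.14 (Cnot6l), with a median of 0.026, against a median of 0.0063 over all tested probe sets. Positive differences were found for 26 genes and negative ones for 12, where 8590 of all 16387 tested probe sets were positive. By limma 0 members had an adjusted p under 0.05, as had 0 (0%) of all tested probe sets. At an unadjusted p under 0.05 there were 0 members, where 579 of 16387 tested probe sets (3.53%) were called, 2.25% higher and 1.28% lower in the mutants. The groups did not overlap for 2 members, Cnot4 and Patl1, both higher in the mutants; among all tested probe sets 8.55% did not overlap, and 5.17% did so with the mutants higher and 3.38% with the mutants lower, so the count of members lies near the background. Fewer cells of a type and less RNA per cell cannot be told apart in whole yolk sac. The estimates also bound the differences. For 37 of 38 members the 95% interval of limma lay within a 1.5-fold change either way, which held for 90.7% of all tested probe sets, and Lsm5 was the exception with an interval from −0.72 to 0.47.

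**Figure D1:**
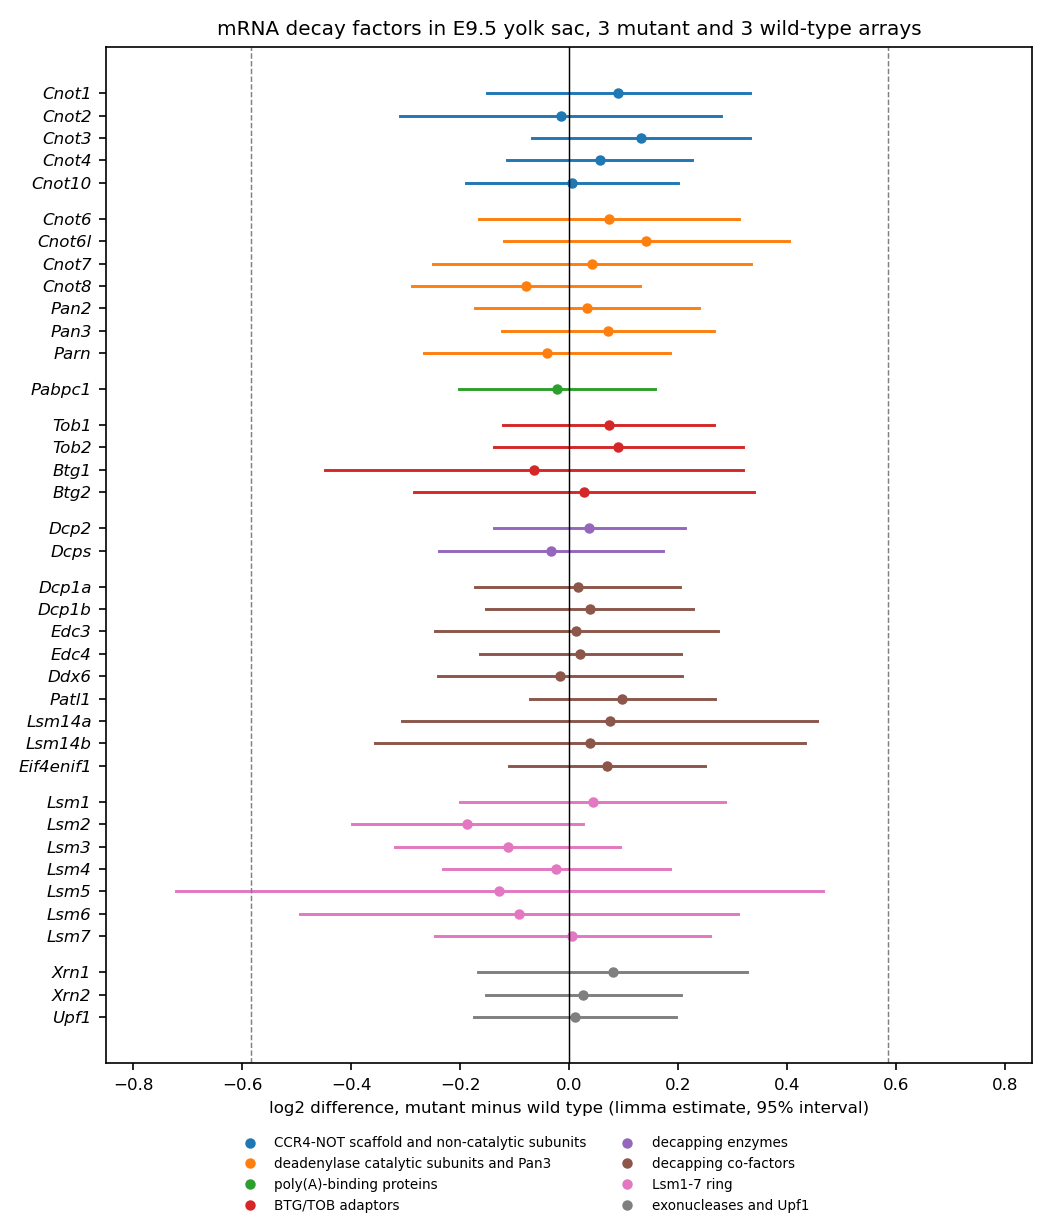
Log2 difference of each of the 38 genes, mutant minus wild type (horizontal axis), grouped and coloured by role; points are limma estimates from 3 mutant and 3 wild-type arrays, bars are 95% intervals, and dashed lines mark a 1.5-fold change. Every interval crosses 0, and only that of Lsm5 crosses a dashed line.

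Among the scaffold and non-catalytic subunits of CCR4-NOT, 4 of 5 genes were higher in the mutants, with a median of 0.056 and 0 past the test. Without wild type 3 the median was 0.029, and without mutant 3 the count was 3 of 5. Cnot3, which with Cnot2 forms the NOT module that contacts RNA-binding proteins, read 8.51, 8.51 and 8.38 in the libraries labelled mutant 1, 2 and 3, against 8.35, 8.41 and 8.24 in wild types 1, 2 and 3. Mutant 3 lay below wild type 2, so the groups overlapped. The difference was 0.13 (95% interval −0.067 to 0.33). Cnot1, the scaffold on which the complex assembles, read 10.62, 10.50 and 10.39 in the libraries labelled mutant 1, 2 and 3 and 10.54, 10.43 and 10.27 in wild types 1, 2 and 3, and the groups overlapped. Its difference was 0.090 at the brighter probe set and −0.030 at the other, where mutant 3 was the highest array at 10.03, so the direction of Cnot1 depended on the probe set. Cnot2 and Cnot10, an N-terminal module subunit, differed by −0.015 and 0.0051.

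Cnot4, a ubiquitin ligase that joins the complex loosely, was one of the 2 genes with separate groups. It read 7.67, 7.58 and 7.60 in the libraries labelled mutant 1, 2 and 3, against 7.57, 7.57 and 7.55 in wild types 1, 2 and 3. The lowest mutant and the highest wild type lay close together, and the wild types spread little (mean 7.62 ± 0.045 in mutants and 7.56 ± 0.011 in wild type, SD, n = 3 each). The difference was 0.056 (95% interval −0.11 to 0.23). Patl1, which bridges the Lsm1-7 ring, DDX6 and the decapping enzyme, was the other, at 7.73, 7.67 and 7.65 in the libraries labelled mutant 1, 2 and 3, against 7.59, 7.59 and 7.57 in wild types 1, 2 and 3. The library labelled mutant 1 was the highest of the 6 arrays for both genes. The means of Patl1 were 7.68 ± 0.043 in mutants and 7.59 ± 0.014 in wild type (SD, n = 3 each), a difference of 0.098 (95% interval −0.072 to 0.27, limma adjusted p = 0.999, which is that of every member). Across the 6 arrays Patl1 and Cnot4 correlated at r = 0.93, as a description. After quantile normalization neither gene's groups stayed apart.

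The stretches of 250 bases before the annotated start of these 2 genes, from RefSeq on GRCm38.p6, are shown because they are the promoters of the members with separate groups. Patl1 lies at chr19:11912149-11912398 (plus strand) and Cnot4 at chr6:35133738-35133987 (minus strand); capitals mark matches, on either strand, to the GC box GGGCGG, the CCAAT box CCAAT, the E-box CACGTG, the TATA box TATAAA and the ETS core CCGGAAG.
Patl1: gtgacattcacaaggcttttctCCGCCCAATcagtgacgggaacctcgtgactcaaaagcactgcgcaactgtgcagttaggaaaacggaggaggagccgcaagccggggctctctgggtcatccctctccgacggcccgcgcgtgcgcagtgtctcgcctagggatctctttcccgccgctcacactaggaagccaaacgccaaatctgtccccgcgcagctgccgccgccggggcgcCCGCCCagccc
Cnot4: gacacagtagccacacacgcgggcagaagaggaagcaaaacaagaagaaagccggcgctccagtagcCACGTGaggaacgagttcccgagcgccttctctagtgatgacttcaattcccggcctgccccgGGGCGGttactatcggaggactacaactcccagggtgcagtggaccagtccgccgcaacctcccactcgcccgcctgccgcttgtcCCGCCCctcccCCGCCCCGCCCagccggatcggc
Patl1 held 2 GC boxes, the first of which overlaps its 1 CCAAT box. Cnot4 held 4 GC boxes and 1 E-box and no CCAAT box. A GC box was found in 32.7% of the 32851 RefSeq windows of this length, a CCAAT box in 33.8%, an E-box in 6.02%, an ETS core in 6.91% and a TATA box in 12.4%. Of the members 31 had a promoter in the table, of which 23 held a GC box, 13 a CCAAT box, 5 an ETS core, 2 a TATA box and 1 an E-box, that of Cnot4.

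Among the nucleases that remove the tail and the adaptor Pan3, 5 of 7 genes were higher in the mutants, with a median of 0.042 and 0 past the test. Without mutant 3 the median of these 7 genes was −0.028, with 2 of 7 higher. Cnot6l, one of the paralogous exonuclease-endonuclease-phosphatase type deadenylases of CCR4-NOT, read 8.05, 8.30 and 8.29 in the libraries labelled mutant 1, 2 and 3, against 8.04, 8.24 and 7.94 in wild types 1, 2 and 3. Mutants 2 and 3 lay above every wild type and the library labelled mutant 1 among them. The difference was 0.14 (95% interval −0.12 to 0.40), and without the library labelled mutant 1 it was 0.22 (−0.055 to 0.50). Its paralogue Cnot6 differed by 0.074. Cnot8, a DEDD-type deadenylase that takes the same place in the complex as Cnot7, read 8.10, 8.12 and 8.34 in the libraries labelled mutant 1, 2 and 3, against 8.27, 8.28 and 8.26 in wild types 1, 2 and 3. Its wild types were nearly equal, 2 mutants lay below them and mutant 3 above (difference −0.079, 95% interval −0.29 to 0.13). Cnot7 differed by 0.042, with mutant 3 again the highest array at 9.06. Pan2, the catalytic subunit of the first-acting nuclease, and Pan3, its adaptor and a direct partner of GW182, differed by 0.033 (−0.17 to 0.24) and 0.071 (−0.12 to 0.27). Parn, a further deadenylase, differed by −0.041.

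Of the proteins that hold the tail or bring deadenylases to it, 0 of 5 passed the test, with 3 of 4 BTG and TOB genes higher in the mutants and Pabpc1 lower. Pabpc1, the main cytoplasmic poly(A)-binding protein, read 12.11, 12.08 and 12.22 in the libraries labelled mutant 1, 2 and 3, against 12.14, 12.15 and 12.18 in wild types 1, 2 and 3. The wild types lay inside the range of the mutants, and the difference was −0.023 (95% interval −0.20 to 0.16). Tob1, an antiproliferative protein that bridges the poly(A)-binding protein and CNOT7, read 7.17, 7.29 and 7.29 in the libraries labelled mutant 1, 2 and 3 and 7.09, 7.25 and 7.19 in wild types 1, 2 and 3 (difference 0.073, 95% interval −0.12 to 0.27). Its groups overlapped, and mutants 2 and 3 lay above every wild type. Tob2, its paralogue, read 5.03, 5.21 and 4.93 in the libraries labelled mutant 1, 2 and 3 and 5.02, 4.88 and 5.0 in wild types 1, 2 and 3 (difference 0.090, 95% interval −0.14 to 0.32). Its highest array was mutant 2, and the groups overlapped. Btg1 and Btg2, relatives that bind the same deadenylases, differed by −0.065 and 0.027, and both were highest in mutant 3, at 9.77 and 6.94. Without mutant 3 the median difference of the 4 BTG and TOB genes was −0.032, against 0.050 over all arrays, and without wild type 1 it was −0.0004.

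Neither of the decapping enzymes passed the test. Dcp2, which cuts the cap from mRNA, read 8.08, 8.03 and 8.01 in the libraries labelled mutant 1, 2 and 3, against 8.0, 7.95 and 8.05 in wild types 1, 2 and 3, and the groups overlapped. The difference was 0.037 (95% interval −0.14 to 0.21). Dcps, the scavenger that hydrolyses the cap left after decay from the other end, read 8.73, 8.80 and 8.67 in the libraries labelled mutant 1, 2 and 3 and 8.80, 8.64 and 8.85 in wild types 1, 2 and 3. The groups overlapped here as well, with a difference of −0.033 (−0.24 to 0.17). Of the decapping co-factors 8 of 9 were higher in the mutants, with a median of 0.038 and 0 past the test. Without mutant 3 the count was 5 of 9 and without wild type 3 it was 6 of 9, and the median was 0.065 without the library labelled mutant 1. Eif4enif1, a shuttling partner of the cap-binding protein eIF4E that joins it to DDX6, read 8.30, 8.28 and 8.34 in the libraries labelled mutant 1, 2 and 3, against 8.31, 8.18 and 8.21 in wild types 1, 2 and 3 (difference 0.070, 95% interval −0.11 to 0.25). Wild type 1 lay among the mutants, and a second, dimmer probe set differed by −0.016, so the direction depended on the probe set. Ddx6, the helicase that CNOT1 binds and that promotes repression and decapping of microRNA targets, differed by −0.017 (−0.24 to 0.21). The activator Dcp1a and its paralogue Dcp1b differed by 0.016 and 0.038, and the scaffolds Edc3 and Edc4 by 0.013 and 0.020.

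Lsm14a and Lsm14b, paralogous proteins of processing bodies that bind DDX6 and 4E-T, differed by 0.074 and 0.039, yet spread widely within the mutants. Lsm14a read 8.5, 8.55 and 9.08 in the libraries labelled mutant 1, 2 and 3, against 8.49, 8.72 and 8.70 in wild types 1, 2 and 3. Lsm14b read 6.85, 6.96 and 7.52 in the libraries labelled mutant 1, 2 and 3, against 7.04, 7.06 and 7.12 in wild types 1, 2 and 3. Mutant 3 was the highest array for both, without it the differences were −0.11 and −0.17, and for Lsm14b the other two mutants lay below every wild type. The pair correlated at r = 0.95 over the 6 arrays. The same description gave 0.90 for Dcp1a with Dcp1b, 0.89 for Btg1 with Btg2, 0.74 for Cnot6 with Cnot6l, 0.73 for Cnot7 with Cnot8 and 0.045 for Tob1 with Tob2. The median over all 703 pairs of members was 0.16 and 10.4% of them exceeded 0.8. All pairs share the same 6 arrays.

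Promoters are shown for Lsm14a and Lsm14b, the pair with the highest r of the 6 paralogue pairs. Whether promoters bear on their shared variation was not tested. The windows are 250 bases before the RefSeq start on GRCm38.p6, Lsm14a at chr7:34389706-34389955 (minus strand) and Lsm14b at chr2:180024737-180024986 (plus strand). Capitals mark the motifs named for Patl1.
Lsm14a: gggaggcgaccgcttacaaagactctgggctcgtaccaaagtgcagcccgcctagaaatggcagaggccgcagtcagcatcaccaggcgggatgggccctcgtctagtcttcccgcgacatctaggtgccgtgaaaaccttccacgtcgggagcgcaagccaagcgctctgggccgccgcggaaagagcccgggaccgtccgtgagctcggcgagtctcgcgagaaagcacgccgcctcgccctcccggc
Lsm14b: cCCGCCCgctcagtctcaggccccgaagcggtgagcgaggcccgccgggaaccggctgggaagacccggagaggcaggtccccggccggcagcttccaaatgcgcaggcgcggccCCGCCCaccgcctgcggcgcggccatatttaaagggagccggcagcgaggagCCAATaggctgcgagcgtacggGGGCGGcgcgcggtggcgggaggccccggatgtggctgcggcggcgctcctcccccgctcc
Lsm14a held none of the 5 motifs in this window, while Lsm14b held 3 GC boxes and 1 CCAAT box.

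**Figure D2:**
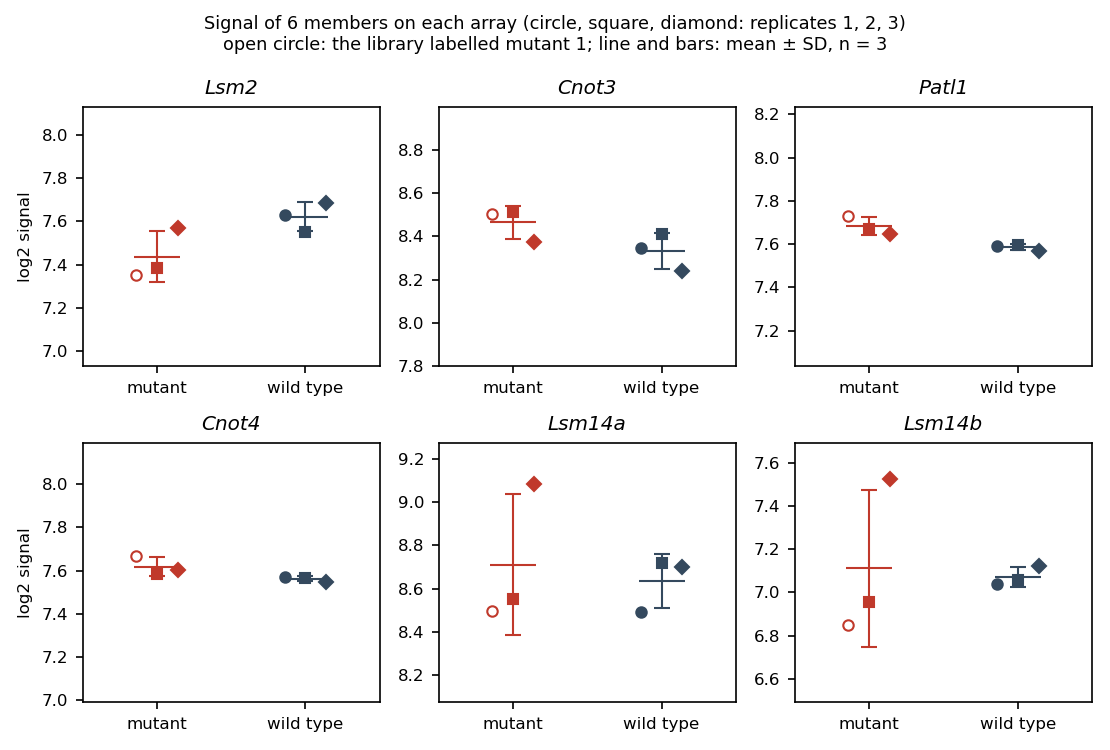
Log2 signal (vertical axis, 1.2 log2 units in each panel) of 6 members in mutant (left, red) and wild-type (right, dark) arrays; circles, squares and diamonds are replicates 1, 2 and 3, the open circle is the library labelled mutant 1, and lines with bars are the mean ± SD (n = 3). Patl1 and Cnot4 have separate groups that lie close together, while Lsm14a and Lsm14b are highest in mutant 3, at 9.08 and 7.52.

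The Lsm1-7 ring was the role with most genes lower in the mutants, 5 of 7, with a median of −0.092 and 0 past the test. This direction rested on single libraries: the median was 0.056, with 5 of 7 higher, without the library labelled mutant 1, and 0.013, with 4 of 7 higher, without wild type 3. Lsm2 had the lowest unadjusted p of all members. It read 7.35, 7.38 and 7.57 in the libraries labelled mutant 1, 2 and 3, against 7.63, 7.55 and 7.68 in wild types 1, 2 and 3. Only mutant 3 reached the wild-type range, where it passed wild type 2. The means were 7.44 ± 0.12 in mutants and 7.62 ± 0.066 in wild type (SD, n = 3 each), 1.14-fold lower in the mutants (log2 difference −0.19, 95% interval −0.40 to 0.025, limma adjusted p = 0.999). Lsm2 is also a subunit of the nuclear Lsm2-8 ring of the U6 small nuclear RNA, as are Lsm3 to Lsm7, so it does not mark the cytoplasmic ring alone. Lsm1, which sets the cytoplasmic ring apart, differed by 0.043 (−0.20 to 0.29). Lsm8, its nuclear counterpart and no member, differed by 0.12 with a wide 95% interval, −0.58 to 0.82. It read 7.26, 7.35 and 8.39 in the libraries labelled mutant 1, 2 and 3, against 7.23, 7.67 and 7.75 in wild types 1, 2 and 3. Mutant 3 alone lay above every wild type.

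Lsm3 read 9.24, 9.15 and 9.38 in the libraries labelled mutant 1, 2 and 3, against 9.33, 9.44 and 9.34 in wild types 1, 2 and 3, with overlapping groups (difference −0.11, 95% interval −0.32 to 0.093). Lsm5 and Lsm6 varied most of all members, over ranges of 1.03 and 0.68. Lsm5 read 7.08, 7.46 and 8.11 in the libraries labelled mutant 1, 2 and 3, against 7.48, 7.60 and 7.96 in wild types 1, 2 and 3. Its lowest and its highest array were both labelled mutant, and its difference of −0.13 lay well inside the spread. The other probe sets of Lsm5 differed by −0.14 and −0.32. Lsm6 differed by −0.092 at its brightest probe set and by −0.10 and −0.13 at the others. Without the library labelled mutant 1 the brightest probe sets differed by 0.11 for Lsm5 and 0.067 for Lsm6. The signs at these brightest probe sets thus rested on that library. For the brightest of Lsm5 the difference was also positive, at 0.013, without wild type 3. At the Lsm5 probe set with −0.32, mutants 2 and 3 read 5.16 and 5.46. Both lay below its wild-type mean of 5.64, so its sign did not rest on the library labelled mutant 1. The 3 probe sets of Lsm5 are annotated to the same transcripts, as are the 3 of Lsm6, so signal from near-identical copies cannot be told apart. Lsm4 and Lsm7 differed by −0.023 and 0.0061.

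Xrn1, the exonuclease that degrades decapped mRNA, read 7.28, 7.15 and 7.35 in the libraries labelled mutant 1, 2 and 3, against 7.27, 7.27 and 7.0 in wild types 1, 2 and 3. Wild type 3 was the lowest array and the groups overlapped, with a difference of 0.080 (95% interval −0.17 to 0.33); without wild type 3 it was −0.0092. Xrn2, its nuclear counterpart in transcription termination, read 9.26, 9.27 and 9.38 in the libraries labelled mutant 1, 2 and 3 and 9.29, 9.28 and 9.26 in wild types 1, 2 and 3 (difference 0.026, −0.15 to 0.20). Mutant 3 was again the highest. Upf1, the helicase of nonsense-mediated decay, differed by 0.011 (−0.18 to 0.20).

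A single array stood out among the members. Mutant 3 was the highest array for 21 of the 38 genes (55.3%) and the lowest for 0, whereas it was the highest for 25.6% and the lowest for 17.5% of all tested probe sets. Wild type 3 was the lowest array for 12 members (31.6%), among them Cnot1, Cnot3, Cnot6, Ddx6 and Xrn1, against 15.3% of all tested probe sets. The median deviation of the members from their own means was −0.034, −0.036 and 0.077 in the libraries labelled mutant 1, 2 and 3, against −0.021, 0.017 and −0.0049 in wild types 1, 2 and 3. Over all tested probe sets mutant 3 had 0.019. A range of more than 0.45, a limit chosen after the values were seen, was found for 7 members (18.4%), against 31.1% of all tested probe sets. They were Lsm5, Lsm6, Lsm14b, Lsm14a, Btg1, Cnot7 and Btg2, and all 7 were highest in mutant 3. Of all tested probe sets with such a range 34.4% were highest in mutant 3. The median range of the members over the 6 arrays was 0.26, as a description; that of all tested probe sets, dim and secondary ones and the members included, was 0.35. Mutant 3 also stood at an end of some marker lists. Its summed log2 signal of 12 endothelial markers was 11.93, against 11.54 and 11.71 in the libraries labelled mutant 1 and 2 and 11.38 to 11.60 in wild type, and that of 13 visceral endoderm markers was 15.36, against 15.52 and 15.60 in the libraries labelled mutant 1 and 2 and 15.46 to 15.47 in wild type. The summed log2 signal of 9 macrophage markers was also lowest in mutant 3, at 8.72. It was 8.99 and 9.16 in the libraries labelled mutant 1 and 2 and 8.93 to 9.10 in wild type. However, 5 of these 9 markers lay below the filter limit. Of these lists 12 of 12 endothelial, 8 of 13 visceral endoderm and 2 of 9 macrophage markers were higher in the mutants. For 8 trophoblast and decidua markers the summed log2 signal was 10.61 in mutant 2, 10.34 in mutant 3 and 10.56 in wild type 2. It was 9.32 in the library labelled mutant 1, and 9.345 and 9.40 in wild types 1 and 3. Of these 8 markers 4 lay below the filter limit, and 5 were higher in the mutants. Mutant 3 was at neither end of this list or of the mesenchyme and mesothelium list. The part of these cell types in the members' values was not tested. Without mutant 3 the median difference of the members was −0.0097.

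**Figure D3:**
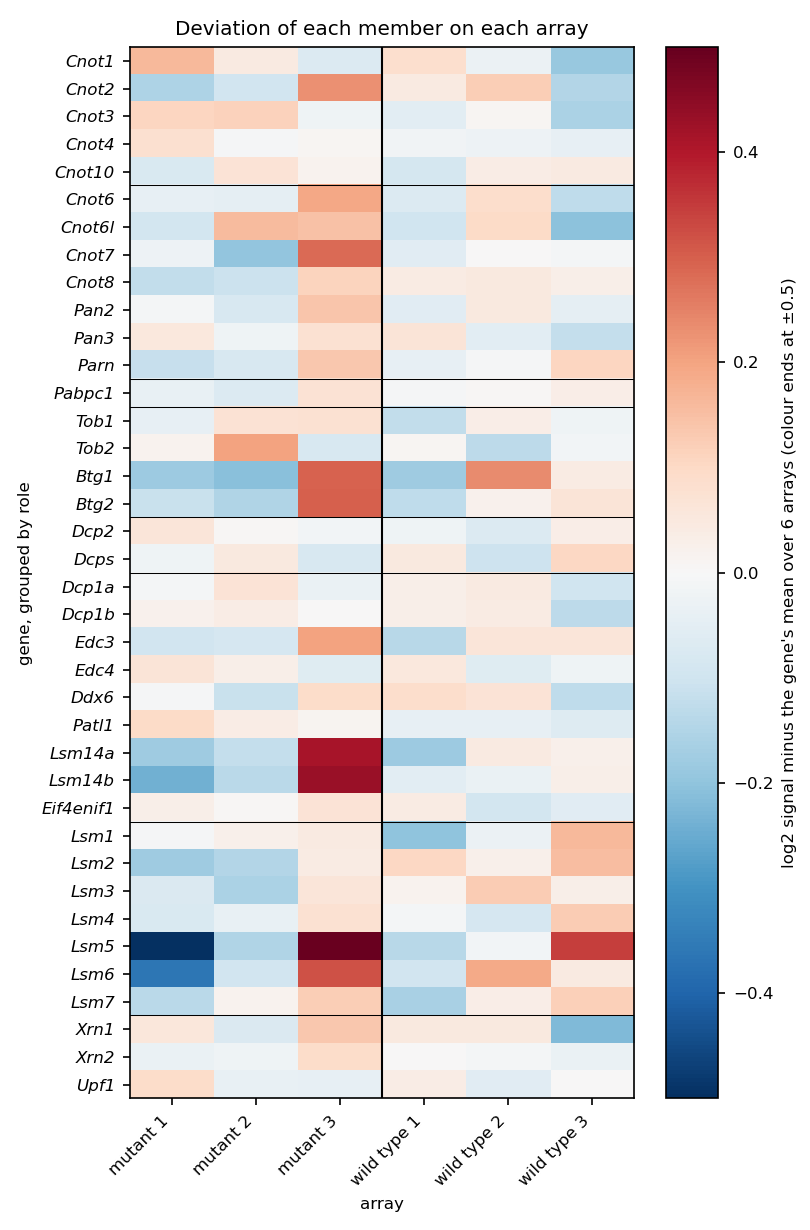
Deviation of each of the 38 genes (rows, grouped by role) on each array (columns, mutants left of the line and wild types right) from the gene's mean over 6 arrays, in log2 units with colour ending at ±0.5. The column of mutant 3 is mostly red, with Lsm5, Lsm14a and Lsm14b the deepest, and Cnot4 and Patl1 are the 2 rows whose genotypes do not overlap.

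Without the library labelled mutant 1, mutants 2 and 3 were compared with the 3 wild types. Then 30 of 38 members had positive differences, from −0.15 (Lsm2) to 0.22 (Cnot6l), with a median of 0.052 against 0.010 over all tested probe sets. By limma 0 members reached an unadjusted p under 0.05, against 4.36% of all tested probe sets. The groups did not overlap for 4 members (Cnot4, Cnot6l, Tob1 and Patl1, each higher in the mutants), against 17.7% of all. The 95% interval lay within a 1.5-fold change for 36 of 38 members, against 85.9% of all.

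The rest of the pathway was read from 6 lists of 88 genes, of which 78 had a single-symbol probe set and 74 were tested. By limma 0 passed the adjusted test, 1 of 74 had an unadjusted p under 0.05, and 7 had groups that did not overlap, 4 higher and 3 lower in the mutants. Both counts lie near the background of 3.53% and 8.55% given above. The 1 gene was Dxo, a decapping exonuclease that clears incompletely capped RNA, at 6.71, 6.56 and 6.67 in the libraries labelled mutant 1, 2 and 3, against 6.88, 6.78 and 6.97 in wild types 1, 2 and 3. Every mutant lay below every wild type (difference −0.23, SE 0.089, 95% interval −0.44 to −0.021, limma adjusted p = 0.999). Its unadjusted limma p was above 0.05 without mutant 2, wild type 1 or wild type 3. Without the library labelled mutant 1, mutant 3 or wild type 2 it stayed under 0.05. The difference stayed negative, between −0.28 and −0.18, when each array was left out. Of the 74 genes 0 had an unadjusted p under 0.05 without mutant 2 or without wild type 1, 5 without mutant 3, and 2 without the library labelled mutant 1 or without wild type 3.

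The RNA exosome and its SKI helper complex, which degrade RNA from the other end, had 14 of 17 genes lower in the mutants, with a median of −0.053 and 0 past the test, where 7797 of all 16387 tested probe sets were lower. Leaving out each array in turn kept the median negative, between −0.12 and −0.024, with 11 to 15 of 17 lower. Exosc7, a subunit of the exosome ring, had the lowest p of the list, at 7.91, 7.83 and 7.94 in the libraries labelled mutant 1, 2 and 3, against 8.0, 8.05 and 8.16 in wild types 1, 2 and 3 (difference −0.18, 95% interval −0.37 to 0.014). Its groups did not overlap. Proteins that bring deadenylases to chosen mRNAs had 15 of 18 genes higher, with a median of 0.054 and 0 past the test. Of all 16387 tested probe sets 8590 were higher. The median stayed between 0.034 and 0.074 when each array was left out, while the count fell to 12 of 18 without mutant 3 or without wild type 3. Samd4b, a mammalian relative of the Drosophila repressor Smaug, had the lowest p of this list (difference 0.16, 95% interval −0.056 to 0.38), without overlap of the groups. In the other lists the lowest p belonged to Tnks1bp1, a protein found with CCR4-NOT, at 0.21 (−0.027 to 0.44), to Smg6, the endonuclease of nonsense-mediated decay, at 0.16 (−0.017 to 0.34), and to Tut1, the uridylyltransferase of U6 RNA, at −0.15 (−0.34 to 0.047). The groups of these 3 genes did not overlap.

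**Figure D4:**
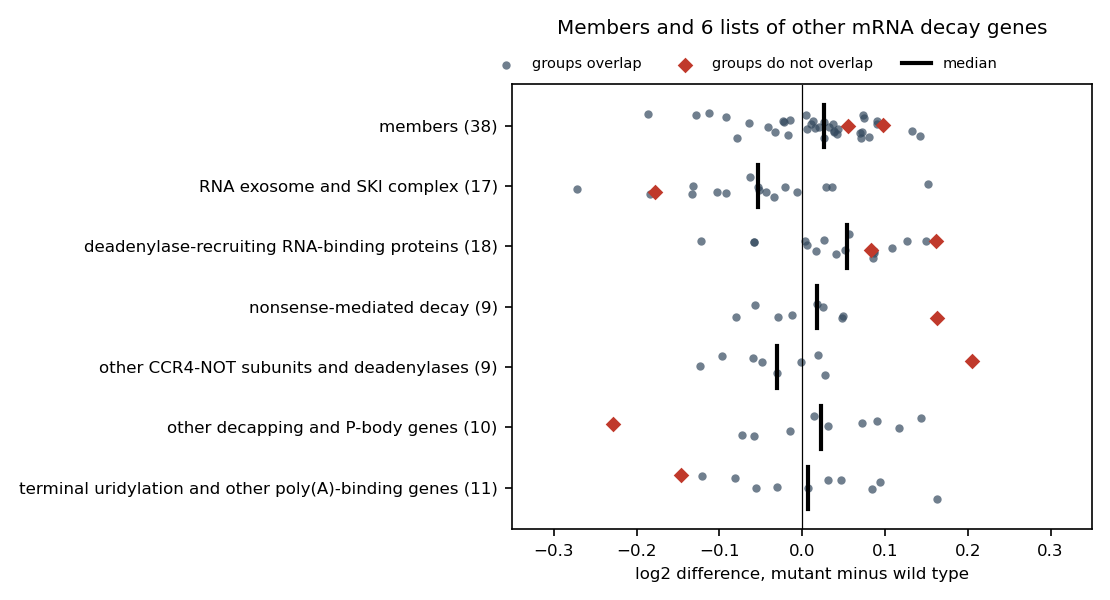
Log2 difference, mutant minus wild type (horizontal axis), of the 38 members and of the 74 tested genes in 6 lists of other mRNA decay genes; each point is a gene, red diamonds mark genes whose groups do not overlap, and black bars are list medians. All lists lie around 0, with medians of −0.053 for the exosome and SKI genes and 0.026 for the members.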

How the data were processed

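The deposited table holds the authors' log2 signals of 35557 probe sets on 6 arrays; their span of 0.66 to 13.7 gave the log2 scale. The submitters' processing notes name MAS5. For the background step, probe summary, scaling and genome build no method was given in the sources used here. How normalization acted on differences between arrays is thus unknown. Values were used as deposited. GEO's platform annotation gave 1 symbol to 21797 probe sets, several to 1613 and none to 12147. Of the annotated probe sets, those whose mean reached their 30th percentile (4.29) were tested without a block by lmFit and eBayes of limma (version 3.58.1, under R 4.3.3); p-values were adjusted over all 16387 by Benjamini-Hochberg, at a threshold of 0.05. The unpaired test of the study's design text was run as an alternative, the methods' t-test. The fit was tested on simulated data. The brightest probe set stood for a gene. Values on every array were given for members whose groups did not overlap and for the 2 with the lowest p in each role; of the other decay genes, those with an unadjusted p under 0.05 and the lowest p in each list were named. Further genes and values singled out in the text were chosen after their values were seen. The members and lists were chosen with earlier results of these data known. Promoters came from RefSeq on GRCm38.p6. Alternatives were other normalizations, filters, variance models and tests, array weights, the replicate number as a block, an Xist covariate, averaging the probe sets of a gene, and leaving out each array.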

Additional observations from a re-analysis of the deposited data

How the results depend on the processing

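No probe set passed the adjusted limma test under any of the alternatives (the lowest adjusted p was 0.108, without the library labelled mutant 1). Members with an unadjusted p under 0.05 numbered 0 in all but 3 alternatives: 1 with array weights (Lsm2), 1 by the methods' t-test (Patl1) and, when each array was left out, 0 to 1 (Lsm2 without mutant 3). Non-overlapping members numbered 1 after quantile normalization (Lsm3) and 3 to 12 when each array was left out. The highest count came without mutant 3, where 27.5% of all tested probe sets had no overlap. That share is above the one given for the fit without the library labelled mutant 1, which has as many arrays. The median difference of the members ran from −0.0097 to 0.052 when each array was left out and was 0.020 with Xist as a covariate and 0.0017 with array weights. All tested probe sets with an unadjusted p under 0.05 numbered 1086 with array weights, where mutant 3 had the lowest weight (0.413), and 395 to 1372 when each array was left out. Other decay genes at that threshold numbered 2 with array weights, 4 by the methods' t-test, 2 with the Xist covariate and 0 to 5 when each array was left out. With the replicate number as a block, 0 members and 2 other decay genes had an unadjusted p under 0.05, among 727 of all tested probe sets; the pairing rests on shared numbers only, as deviations of same-numbered arrays correlated at 0.45, 0.15 and −0.11, and mutant 3 correlated best with wild type 2. Among the 2 members of lowest p in each role, leaving out single arrays turned the sign for Dcps (−0.093 to 0.0096), Pabpc1 (−0.064 to 0.0065), Xrn1 (−0.0092 to 0.14) and Xrn2 (−0.014 to 0.048). Over all 38 members the sign turned for 25 and held for 13 when each array was left out, with the widest range for Lsm5 (−0.41 to 0.11), then Lsm6 (−0.27 to 0.067), Lsm14b (−0.17 to 0.17) and Lsm14a (−0.11 to 0.18). The causes were not tested. The Tnrc6a difference ran from −2.84 to −1.54. For Dxo and the role and list medians, leaving out arrays was chosen after seeing the data.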

Other observations

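Dxo and Skiv2l, the helicase of the SKI complex, are neighbours on chromosome 17, and Lsm2 lies close to them in the RefSeq gene order of GRCm38.p6. All 3 had negative differences, of −0.23, −0.13 and −0.19. From Stk19, on the far side of Dxo, to Lsm2 there were 13 tested genes, with a median difference of −0.030. Of these, 10 were lower in the mutants, where 7797 of all 16387 tested probe sets were lower. Dxo and Lsm2, already seen to be low, set this stretch, and Skiv2l, which lies inside it, had also been seen to be low. All 3 thus count among the 10 by construction. Only Dxo had groups that did not overlap with the mutants lower, and 1 of the 13 (Dxo) had an unadjusted p under 0.05 by limma. Cfb and C2, complement genes between them, had positive differences of 0.26 and 0.16. The lower values of Dxo, Skiv2l and Lsm2 were noticed in the data and were not tested as a set.

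Of the probe sets shared by Pabpc4 and Gm12620, which belong to no comparison above, the brightest read 10.67, 10.44 and 10.77 in the libraries labelled mutant 1, 2 and 3, against 10.71, 10.67 and 10.84 in wild types 1, 2 and 3. All 4 were lower in the mutants on average, by −0.10 to −0.13, and mutant 2 was the lowest array in each.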
